A study of Mus musculus with 2 samples.

Results

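The genes described here are 10 that encode lysosomal proteins of antigen-presenting cells: 8 lysosomal peptidases (Ctsa, Ctsb, Ctsc, Ctsd, Ctsl, Ctss, Ctsz and Lgmn) and the lysosomal membrane glycoproteins Lamp1 and Cd68. They are listed by gene symbol, in a list drawn up with earlier results of these data known, and all 10 were found among the 17232 genes of the expression table. The question addressed was which tumor-infiltrating leukocytes carry the transcripts of this machinery, and how the levels compare between tumors of Maoa wild-type (WT) and Maoa knockout (KO) mice. Maoa encodes monoamine oxidase A, a mitochondrial enzyme that breaks down amines such as serotonin.

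Both groups received B16-OVA cells, a mouse melanoma line made to express chicken ovalbumin, under the skin, and tumors were collected on day 14. WT mice were C57BL/6J, and the KO mice carried the hypomorphic 129S-Maoa tm1Shih/J allele crossed for more than 9 generations onto C57BL/6J, with mice generally 8 to 12 weeks old. Cells of 10 tumors per genotype were pooled, sorted as DAPI- CD45.2+ (living leukocytes), and 10000 cells per pool were loaded for droplet single-cell RNA sequencing of transcript 3′ ends. There was therefore 1 library per genotype and no replicate, so no test between genotypes was possible. The intervals given are 95% Poisson or binomial limits of counting error, which leave out differences between mice and between library preparations.

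Lysosomal peptidases are made as inactive precursors, reach the endosome and lysosome, and become active as the compartment acidifies. In macrophages and dendritic cells (DC) they degrade ingested material, trim antigens into peptides for MHC class II, and cut the invariant chain that occupies the class II groove before peptide loading. Many lysosomal genes are controlled by the MiT/TFE transcription factors, which bind E-box-like promoter elements with the core CACGTG.

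The labelled WT library held 2392 cells and 28801253 unique molecular identifiers (UMIs, each marking the 3′ end of 1 captured RNA molecule), and the labelled KO library held 2630 cells and 23702018 UMIs. The median cell had 9887.5 UMIs in the labelled WT library and 6945.5 in the labelled KO library, and for detection rates cells were therefore thinned at random to 3700 UMIs, which left out the 49 and 393 cells with fewer. Maoa gave 7 UMIs in the labelled WT and 15 in the labelled KO library, with overlapping counting intervals. With so few UMIs the targeted gene neither bore out nor contradicted the labels, and the libraries are called labelled WT and labelled KO throughout. Genes on the Y chromosome summed to 114 and 118 CPM (UMIs per 1000000 UMIs of the cells in question), whereas Xist had 2 and 0 UMIs, although female mice were stated to be used unless indicated otherwise. S100a8 and S100a9, neutrophil transcripts that report free RNA in other cells, summed in natural killer (NK) cells to 112 CPM in the labelled WT and 2.45 CPM in the labelled KO library. Cells of the libraries shared 13 barcodes. Cells were grouped into 15 classes by marker genes after clustering without the 10 genes, and these rebuilt names may differ from those of the study.

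The promoters of several of these genes hold the CACGTG core, and the stretches around the matches are shown because the genes of the set differ in how many they have. The motif was sought in the RefSeq windows (build GRCm38.p6) of 300 bases, which run from 250 bases before to 50 bases after each annotated start. CACGTG reads the same on both strands. Of the 9 genes with a window, 5 held it (55.6%), beside 2187 of all 27025 genes with such windows (8.09%). That background was not limited to genes of the expression table. The longer TCACGTGA, which contains it, was found in 2 of the 9 genes (22.2%) and in 1.12% of all genes with windows. Lamp1 had 4 matches within 61 bases before its start, on chromosome 8 at 13159080 to 13159171, plus strand. Ctsa had 2 matches in the second of its 2 windows, the first base of one lying 12 bases before the start. Ctsd had 2 matches, and Ctsl and Lgmn had 1 each. The windows of Ctsc, Ctss, Ctsz and Cd68 held none, and Ctsb had no window. Each sequence below runs 5′ to 3′ along the gene's strand, with CACGTG in capitals.
Lamp1, chr8:13159080-13159171, plus strand: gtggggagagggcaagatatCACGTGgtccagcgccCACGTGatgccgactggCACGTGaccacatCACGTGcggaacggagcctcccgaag
Ctsa, chr2:164833741-164833792, plus strand: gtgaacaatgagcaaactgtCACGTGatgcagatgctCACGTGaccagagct
Ctsd, chr7:142387900-142388077, minus strand: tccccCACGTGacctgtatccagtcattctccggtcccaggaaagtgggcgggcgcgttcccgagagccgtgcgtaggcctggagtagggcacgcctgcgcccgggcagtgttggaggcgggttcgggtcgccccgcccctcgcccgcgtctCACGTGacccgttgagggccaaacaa
Lgmn, chr12:102439116-102439161, minus strand: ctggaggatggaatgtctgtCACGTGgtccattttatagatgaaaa
Ctsl, chr13:64370731-64370770, minus strand: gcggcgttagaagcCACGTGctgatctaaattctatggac
These matches describe the sequence and do not show binding of a factor. Among lists of other lysosomal genes, the motif was found in 7 of 28 hydrolases and activators (25%), 4 of 11 proton pump subunits (36.4%) 2 of 12 membrane proteins (16.7%), 2 of 3 sorting receptors (66.7%), 1 of 4 other cathepsins (25%), 1 of 5 class II genes (20%), 0 of 9 cathepsin inhibitors and 0 of 4 MiT/TFE factors.

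Together the 10 genes took a larger share of UMIs in macrophages than in the other classes. In C1q macrophages, named for the complement genes C1qa, C1qb and C1qc, they gave 1.91% of all UMIs in the labelled WT and 1.58% in the labelled KO library. Cxcl3/Hspa1a macrophages, called after leading genes of their 2 clusters, followed with 1.55% and 1.39%, and their cluster led by Cxcl3, taken alone, had 1.81% and 1.94%. The share was lower in MHC II-high monocyte-derived cells (1.22% and 0.996%), classical monocytes (1.03% and 0.713%) and nonclassical monocytes (0.877% and 0.718%). Plasmacytoid DC (pDC), the main type I interferon producers, had 0.671% and 0.665%, above Cd209a DC (0.485% and 0.435%), mature DC (0.377% and 0.283%) and cross-presenting cDC1 (0.253% and 0.176%). NK cells had 0.162% and 0.133%. Some DC classes were small, with 48 and 70 pDC, 29 and 47 mature DC, and 16 and 55 cDC1. Within C1q macrophages of the labelled WT library, the tenth and ninetieth percentile cells had 1.28% and 2.62%, so the high share was not carried by a few cells. Classical monocytes of that library differed, with 0.813% in the median cell and 1.04% in the ninetieth percentile cell, near the pooled 1.03%.

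**Figure D1:**
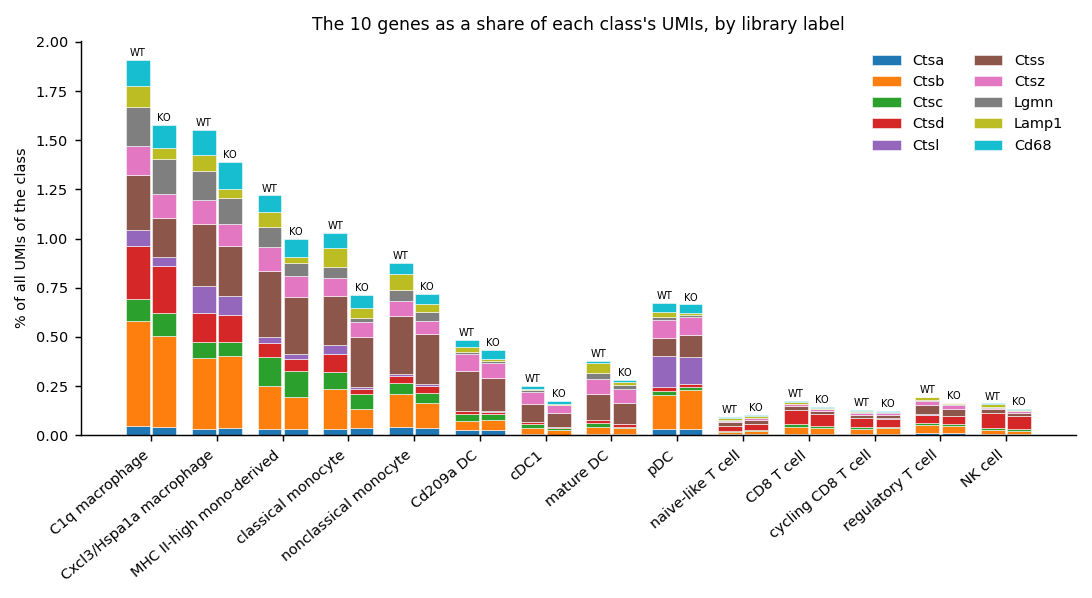
Stacked bars of the percent of all UMIs of each cell class that came from the 10 genes, by gene, for the labelled WT and labelled KO library. The bars are tallest in C1q macrophages (1.91% and 1.58%) and Cxcl3/Hspa1a macrophages (1.55% and 1.39%), and pDC stand above the other DC classes.

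All 10 genes were at least 2-fold higher in macrophages (both classes pooled) than in T cells in both libraries, as were 14.1% of the 7428 genes with enough UMIs. The same held for 9 of 10 in MHC II-high monocyte-derived cells (all genes 13.1%), classical monocytes (11.6%) and nonclassical monocytes (10.0%), with Ctsd as the exception each time. In DC the set split: 7 of 10 genes passed in Cd209a DC (9.10%) and in pDC (8.97%), 5 of 10 in mature DC (8.12%) and 3 of 10 in cDC1 (5.92%). In NK cells 0 of 10 genes were at least 2-fold higher (2.20%) and 0 lower (5.05%). Because the classes were made by clustering these same cells, these counts are descriptions and carry no test.

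Ctsb (chr14:63122462-63145923, plus strand; positions of genes are those of build GRCm38) encodes cathepsin B, a cysteine endopeptidase that also trims dipeptides. Among the classes its level was highest in C1q macrophages, at 5316 CPM (5206 to 5428) in the labelled WT and 4579.9 CPM (4489.7 to 4671) in the labelled KO library. Cxcl3/Hspa1a macrophages had 3584 and 3641 CPM, with 4283 CPM (4198 to 4369.8) and 5245 CPM (5052 to 5444) in the cluster led by Cxcl3, the latter above C1q macrophages of that library. MHC II-high monocyte-derived cells had 2178 and 1604 CPM. The level in pDC, 1741 and 1964 CPM, was several times that in Cd209a DC (452 and 506 CPM), mature DC (344 and 283 CPM) and cDC1 (307 and 209 CPM). Ctsb in those 3 DC classes thus lay not far from its level in CD8 T cells (342 and 286 CPM), and naive-like T cells were lowest with 116 and 158 CPM.

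Ctss (chr3:95526786-95556403, plus strand) encodes cathepsin S, the cysteine protease that completes invariant chain removal in most class II-positive cells. Among the classes it was highest in MHC II-high monocyte-derived cells, with 3409.9 CPM (3343 to 3478) and 2903 CPM (2841 to 2966) in the labelled WT and KO libraries. Cxcl3/Hspa1a macrophages (3126 and 2521 CPM), nonclassical monocytes (2963 and 2555 CPM) and classical monocytes (2478 and 2567 CPM) lay close to it. The cluster of macrophages led by Cxcl3, taken alone, had 3418 CPM (3342 to 3495) and 3031 CPM (2884 to 3183), and its intervals overlapped with those of the highest class. Unlike Ctsb, Ctss was well above the T cell level in every DC class: Cd209a DC had 2025 and 1672 CPM, 10.0-fold and 8.44-fold above T cells, and cDC1 had 895 and 733 CPM, 4.43-fold and 3.70-fold above. After thinning, 87.5% and 94.5% of cDC1 (16 and 55 cells in all) had a Ctss UMI. The shares were 50.6% of 176 and 43.2% of 162 NK cells with enough UMIs, a class expected to have little of it. Unthinned, the shares were 100% and 100% of cDC1 and 61.2% and 49.4% of all 188 and 267 NK cells.

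Ctsl (chr13:64359337-64370890, minus strand), encoding cathepsin L, the endopeptidase that cuts the invariant chain in thymic epithelium, followed another order. Among the classes the highest in both libraries was pDC, with 1589.8 CPM (1464 to 1723) in the labelled WT and 1328 CPM (1229 to 1432) in the labelled KO library. Cxcl3/Hspa1a macrophages came next with 1353 CPM (1319 to 1386) and 955 CPM (907 to 1005), so the intervals did not overlap, and C1q macrophages had 818 and 443 CPM. The order holds for the pooled class, since its cluster led by Cxcl3 alone had 2097 CPM (2038 to 2158) and 2214 CPM (2089 to 2345), above pDC. The other DC classes were near the bottom, with 34.6 and 28.1 CPM in Cd209a DC and 27.3 and 10.0 CPM in cDC1. At 3700 UMIs per cell, 97.9% and 98.6% of pDC had a Ctsl UMI, while the shares were 4.55% and 4.32% in NK cells with enough UMIs (unthinned 97.9% and 100% of pDC and 9.57% and 4.87% of NK cells). From the highest to the lowest class Ctsl spanned 98.7-fold and 133-fold.

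Among the exopeptidases, Ctsc (chr7:88278085-88310888, plus strand) encodes dipeptidyl peptidase I, which activates serine proteases of cytotoxic granules. Ctsc was highest in MHC II-high monocyte-derived cells, at 1461 CPM (1418 to 1506) and 1311 CPM (1269.5 to 1353), with C1q macrophages next at 1128 and 1207 CPM. It was also among the 10 leading genes of the cluster that carried that name. CD8 T cells had 131 and 77.8 CPM and NK cells 88.6 and 92.1 CPM. Ctsz (chr2:174427493-174439039, minus strand), the carboxypeptidase cathepsin Z, spanned a narrow range over macrophages, monocytes and DC, from 1497 and 1188 CPM in C1q macrophages to 646 and 375 CPM in cDC1, and Cd209a DC kept 857 and 774 CPM. Ctsa (chr2:164832873-164841032, plus strand), a serine carboxypeptidase that also shields lysosomal neuraminidase and beta-galactosidase, had 465 and 444 CPM in C1q macrophages. Its level in cDC1 was 44.4 and 40 CPM, the lowest of 14 ordered classes in both libraries.

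Ctsd (chr7:142375911-142388038, minus strand) encodes cathepsin D, the aspartic endopeptidase of the lysosome. Its level was 2668 and 2387 CPM in C1q macrophages and 1500.5 and 1396 CPM in Cxcl3/Hspa1a macrophages, with 2166 and 2499 CPM in the cluster led by Cxcl3. The next levels were shared between myeloid and lymphoid cells. Classical monocytes had 883 CPM (832 to 935) in the labelled WT library, above NK cells. In the labelled KO library classical monocytes had 249.7 CPM (226 to 275), below NK cells. NK cells had 757 CPM (707 to 809) and 669 CPM (624 to 716), and CD8 T cells had 706 and 626 CPM, beside 735 and 636 CPM in MHC II-high monocyte-derived cells. DC stood below all of them, with 119 CPM (96.1 to 145) and 135 CPM (117 to 155) in Cd209a DC and 68.3 CPM (41.7 to 106) and 37.5 CPM (25.3 to 53.6) in cDC1. NK cells thus had 6.35-fold and 4.94-fold more Ctsd than Cd209a DC, and 10.8-fold and 17.5-fold more than cDC1. The cDC1 values rest on 16 and 55 cells with 20 and 30 Ctsd UMIs. After thinning, 86.4% and 88.3% of those 176 and 162 NK cells had a Ctsd UMI, against 40.3% and 33.1% of Cd209a DC and 18.8% and 14.5% of cDC1. Without thinning the shares were 93.6% and 90.3%, 77.4% and 67.9%, and 68.8% and 40% in the same order. Ctsd was at least 2-fold lower than in T cells in Cd209a DC, cDC1, mature DC and pDC in both libraries, as were 11.3%, 12.6%, 15.6% and 11.9% of all genes in those classes.

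Lgmn (chr12:102394084-102439813, minus strand) encodes legumain, the asparaginyl endopeptidase that processes other cathepsins and antigens. It fell steeply from C1q macrophages (1983 and 1773 CPM) and Cxcl3/Hspa1a macrophages (1481 and 1317 CPM) to MHC II-high monocyte-derived cells (1024 and 698 CPM). In mature DC, cells that have moved from uptake to presentation, Lgmn was 289.6 and 201 CPM, above Cd209a DC (124 and 114 CPM) and cDC1 (64.9 and 40 CPM). T and NK cell classes lay between 24.5 and 65.0 CPM, and B cells, with 7 and 24 cells, gave 7 and 25 Lgmn UMIs. Lamp1 (chr8:13159161-13175338, plus strand), a heavily glycosylated protein of the lysosomal membrane, was highest among the classes in C1q macrophages (1037 and 583 CPM), with 839.5 and 610.0 CPM in the cluster led by Cxcl3, and mature DC with 535 and 173 CPM exceeded Cd209a DC with 225 and 106 CPM. Cd68 (chr11:69664213-69666153, minus strand), the macrophage member of the same protein family, was 1347 and 1185 CPM in C1q and 1246 and 1373 CPM in Cxcl3/Hspa1a macrophages, with 1376 and 1788 CPM in the cluster led by Cxcl3, so the order of the first 2 classes changed between libraries. Cd68 was 434 and 449.8 CPM in pDC but 83.5 and 105 CPM in mature DC.

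**Figure D2:**
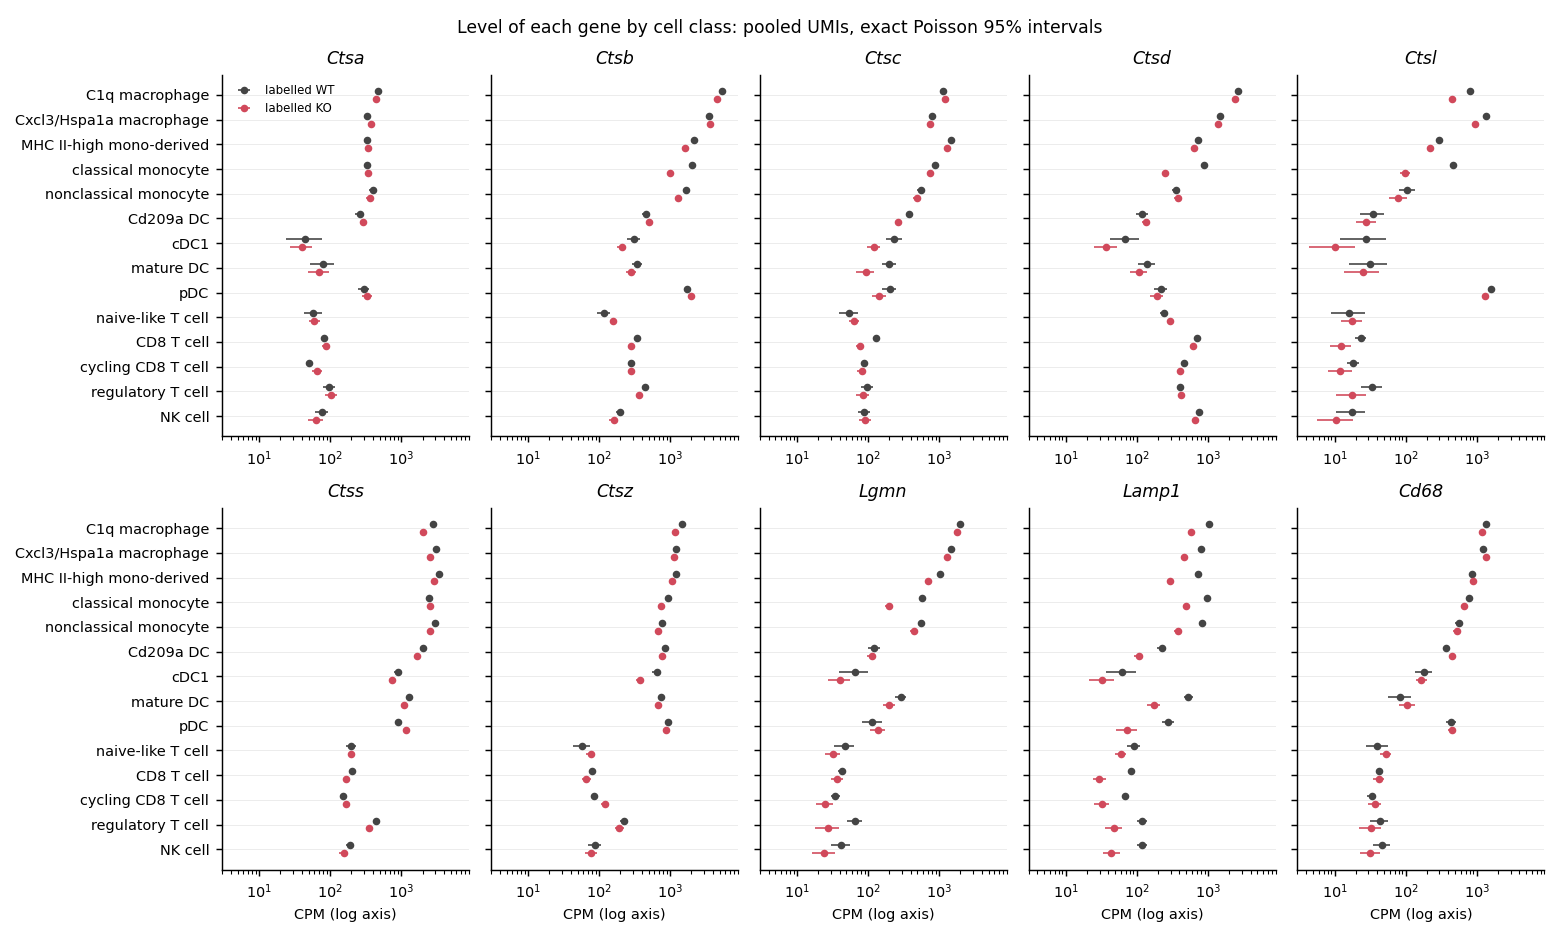
Level of each of the 10 genes (CPM, log axis) in 14 cell classes of the labelled WT and labelled KO library, with exact Poisson 95% intervals. With the 2 clusters of Cxcl3/Hspa1a macrophages pooled, Ctsl is highest in pDC (1589.8 and 1328 CPM), and Ctsd in NK cells (757 and 669 CPM) lies above every DC class.

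Neighbouring classes in these orders often could not be separated by counting error. Of 13 neighbouring pairs, 12 overlapped for Ctsa in the labelled WT and 11 in the labelled KO library, whereas 4 and 8 overlapped for Ctsc and 5 and 6 for Ctss. Levels of different genes were not ranked against each other, since a UMI count carries no correction for how well a transcript is captured.

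Part of the lymphoid signal lay in few cells. The single highest cell held 8.52% of all UMIs of the set in naive-like T cells of the labelled KO library, and this cell had 169 UMIs of C1q genes. In regulatory T cells of the labelled WT library the highest cell held 9.07%, with 2 C1q UMIs. A cluster with T cell and myeloid genes (83 and 71 cells) was kept out of all classes, and its summed share was 0.791% and 0.405%. Melanoma markers summed to 21.8 and 544 CPM in naive-like T cells, and to 226 and 4.95 CPM in CD8 T cells. The part of these cells and of free RNA in the lymphoid levels was not tested.

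Cxcl3/Hspa1a macrophages consisted of a cluster led by Hspa1a and Rsad2 (237 and 127 cells in the labelled WT and KO libraries) and a cluster led by Cxcl3 and Mmp12 (196 and 46 cells). Ctsl was 3.17-fold and 6.90-fold higher in the Cxcl3 cluster, and it was among the 10 leading genes of that cluster. Ctsd was 2.46-fold and 2.97-fold higher there, and Ctsb 1.46-fold and 1.85-fold. Ctsc went the other way and was 1.22-fold and 1.44-fold lower, while Lgmn was 1.05-fold and 1.23-fold higher. In both libraries, 2 of 10 genes were at least 1.5-fold higher in the Cxcl3 cluster and 0 lower, beside 6.20% and 8.50% of the 1789 genes with enough UMIs. The cluster thus had more Ctsl and Ctsd without a like rise of the exopeptidases or of Lgmn. Within both clusters together, the tenth of cells richest in Ctsl held 49.5% and 62.7% of its UMIs, against 27.1% and 31.6% for Lgmn.

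**Figure D3:**
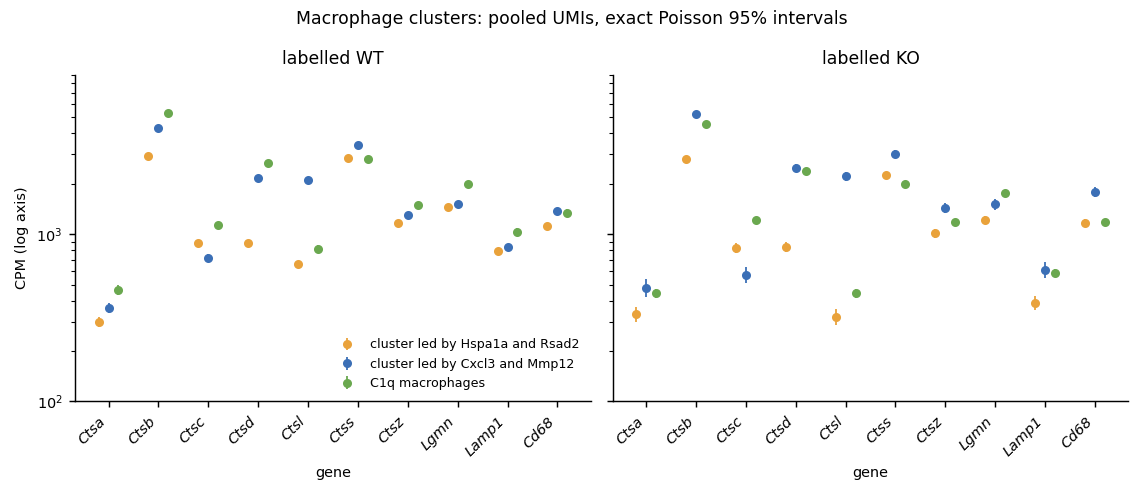
Level (CPM, log axis) of the 10 genes in the macrophage cluster led by Hspa1a and Rsad2, the cluster led by Cxcl3 and Mmp12, and C1q macrophages, with exact Poisson 95% intervals, for each library. Ctsl and Ctsd are 3.17-fold and 2.46-fold higher in the Cxcl3 cluster than in the Hspa1a cluster in the labelled WT library, and 6.90-fold and 2.97-fold higher in the labelled KO library, whereas Ctsc is lower.

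Between the libraries, Lamp1 was the only gene of the set past 1.5-fold in every compared class. Of 11 classes with at least 50 cells in each library, Lamp1 was at least 1.5-fold lower in the labelled KO library in all 11, with log2 ratios (labelled KO over labelled WT) from −0.61 in naive-like T cells to −1.46 in CD8 T cells. In C1q macrophages it was 1037 CPM in the labelled WT and 583 CPM in the labelled KO library, a log2 ratio of −0.83 (−0.94 to −0.73), and the median cell had 23 and 11 Lamp1 UMIs. MHC II-high monocyte-derived cells had 727 and 297 CPM (−1.29, −1.41 to −1.17), nonclassical monocytes 822 and 379 CPM (−1.11, −1.35 to −0.89) and NK cells 119 and 44.0 CPM (−1.43, −1.92 to −0.97). Thinning to 3700 UMIs left the same order, since 92.0% and 64.4% of MHC II-high monocyte-derived cells and 34.1% and 14.8% of the NK cells with enough UMIs then had a Lamp1 UMI. Unthinned, these shares were 99.5% and 90.7%, and 49.5% and 17.2%. In pDC, which had fewer than 50 labelled WT cells, Lamp1 was 278 and 73.3 CPM. Of 1183 genes with enough UMIs in all 11 classes, 7 (0.592%) were at least 1.5-fold lower in each, namely Gnas, Cap1, Rac1, Gdpd3, Lamp1, Jund and Arf6, and 0 were higher in each. With 1 library per genotype, a difference of Lamp1 common to all cell classes cannot be told apart from a difference between the library preparations.

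Ctsl had a negative log2 ratio in 10 of 11 classes, past 1.5-fold in 5, of which regulatory T cells and NK cells had under 100 Ctsl UMIs. The intervals of nonclassical monocytes, Cd209a DC, cycling CD8 T cells and NK cells reached above 0. In C1q macrophages it was 818 and 443 CPM (−0.88, −1.01 to −0.76), where 8 of 76 labelled WT cells held 50.5% and 10 of 100 labelled KO cells 39.3% of its UMIs. In Cxcl3/Hspa1a macrophages it was 1353 and 955 CPM (−0.50, −0.58 to −0.42). Within the cluster led by Hspa1a, Ctsl was 660.5 and 321 CPM (−1.04), and Ctsl and Lamp1 made 2 of 10 genes past the limit there (all genes 10.1% lower and 3.33% higher). In the cluster led by Cxcl3, with 46 labelled KO cells, Ctsl was 2097 and 2214 CPM (0.08, −0.02 to 0.17) and Lamp1 839.5 and 610.0 CPM (−0.46, −0.64 to −0.29). The clusters made up different parts of the class in the 2 libraries, so the class ratios hold their mix as well as the levels within them. With 1 mix of the clusters set for both libraries, the class ratio was −0.16 for Ctsl and −0.74 for Lamp1. Lgmn ratios were negative in 11 of 11 classes and past 1.5-fold in 3, of which regulatory T cells and NK cells had under 100 Lgmn UMIs, but small in C1q macrophages (−0.16) and Cxcl3/Hspa1a macrophages (−0.17), with MHC II-high monocyte-derived cells at −0.55 (1024 and 698 CPM). The other genes of the set stayed within 1.5-fold in the C1q class: Ctss was 2796 and 2003 CPM (−0.48), Ctsz 1497 and 1188 CPM (−0.33), Ctsb −0.22, Cd68 −0.19, Ctsd −0.16, Ctsa −0.07 and Ctsc 0.10 (0.01 to 0.18). Past the 1.5-fold limit in C1q macrophages were 2 of 10 genes, Ctsl and Lamp1, both lower (all genes 4.76% lower and 4.06% higher). Over both macrophage classes pooled the same 2 genes passed it (7.24% lower and 10.5% higher). In Cxcl3/Hspa1a macrophages (all genes 7.51% lower and 4.44% higher), MHC II-high monocyte-derived cells (4.44% and 2.54%) and nonclassical monocytes (5.25% and 3.08%) the gene past it was Lamp1 alone. The same was true, among the 7 to 10 genes of the set with enough UMIs, of Cd209a DC (7.49% and 3.56%), naive-like T cells (2.22% and 7.32%), cycling CD8 T cells (3.60% and 2.48%), regulatory T cells (3.88% and 2.04%) and NK cells (3.93% and 3.24%). In CD8 T cells Lamp1, Ctsl and Ctsc (−0.75) passed it (6.14% and 4.33%). These counts moved with the clustering and the cells kept: naive-like T cells had 7 members lower with 20 principal components (all genes 4.68%), 8 with the members allowed among the variable genes (5.12%) and 0 without cells of shared barcodes (2.27%). With 20 principal components nonclassical monocytes had 5 (8.25%), and cycling CD8 (3.78%) and regulatory T cells (4.06%) 3 each. Some settings also gave 2 or 3 in MHC II-high monocyte-derived cells and NK cells. The CD8 T cell class pooled a cluster led by Cxcr6 and Cd8a (350 and 176 cells) with one led by Acp5 and Klra7 (115 and 245 cells), so its mix differed between the libraries. Within these clusters the log2 ratios were −1.9983 and −1.45 for Lamp1, −0.59 and −0.79 for Ctsc and −1.09 and −1.07 for Ctsl. In each of the 11 classes, 0 genes of the set were at least 1.5-fold higher in the labelled KO library.

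**Figure D4:**
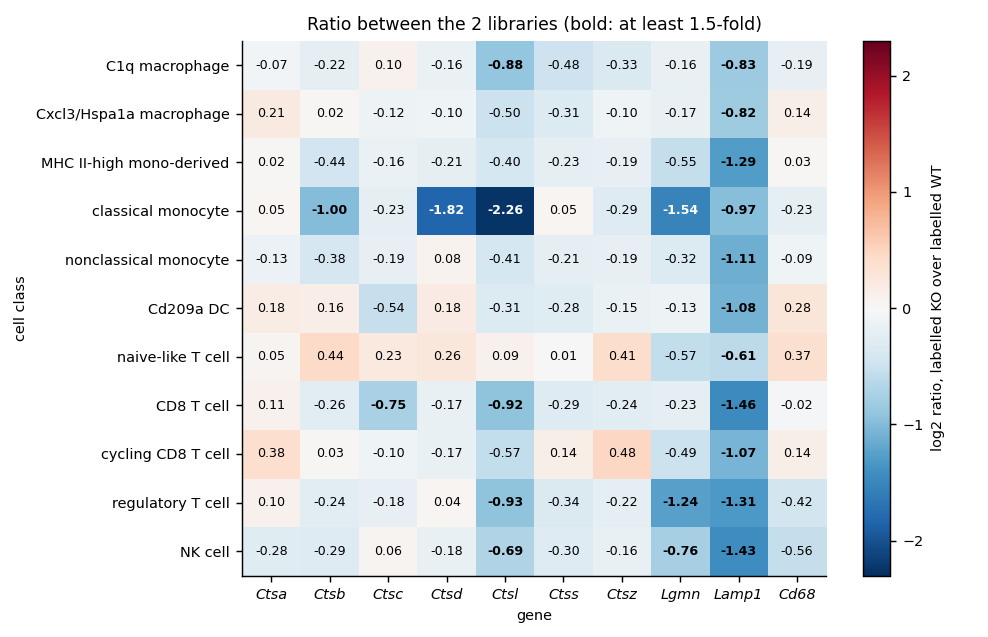
Heat map of log2 ratios (labelled KO over labelled WT) of the 10 genes in the 11 compared cell classes, with values past 1.5-fold in bold. Lamp1 is negative and past 1.5-fold in all 11 classes (−0.61 to −1.46), and classical monocytes are the class with the most genes past it (5 of 10).

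Classical monocytes stood apart, with 5 of 10 genes at least 1.5-fold lower in the labelled KO library and 0 higher (all genes 9.83% lower and 7.58% higher). Ctsl was 471 and 98.0 CPM (−2.26), Ctsd 883 and 249.7 CPM (−1.82), Lgmn 577 and 198 CPM (−1.54), Ctsb 2017 and 1006 CPM (−1.0035) and Lamp1 963 and 490.1 CPM (−0.97). Ctss (2478 and 2567 CPM) and Ctsa (334 and 346 CPM) were close to level. The first 4 values rested on few cells. In the labelled WT library, 11 of 112 cells held 77.5% of Ctsd, 76.6% of Ctsl, 74.8% of Lgmn and 64.6% of Ctsb UMIs, but 33.8% of Lamp1 UMIs. The labelled WT library had 6 cells with more than 20 Ctsd UMIs, with 8 to 829 C1q UMIs each and a median of 52564 UMIs per cell, and the labelled KO library had 0. Macrophage genes moved in the same direction: all 12 C1q macrophage markers were detected in the labelled WT and 11 in the labelled KO monocytes, summing to 4922 and 2018 CPM, with Gas6 at 0 in the latter. When the cells with a C1q UMI were left out, a step added after the data were seen, 42 and 111 cells remained. The log2 ratios were then −0.22 (−0.56 to 0.12) for Ctsd, −0.17 for Ctsb and −0.47 for Lgmn, Ctsl went from −2.26 (−2.53 to −2.01) to −1.14 (−1.59 to −0.68), and Lamp1 was −1.01 (−1.21 to −0.80). Past the limit were then 2 of 10 genes, both lower (all genes 5.68% lower and 5.23% higher). The differences in Ctsd, Ctsb, Lgmn and Ctsl were thus smaller without the cells that had C1q UMIs, and that in Lamp1 was of like size. The median monocyte had 2.5 and 1.5 Ctsd UMIs.

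**Figure D5:**
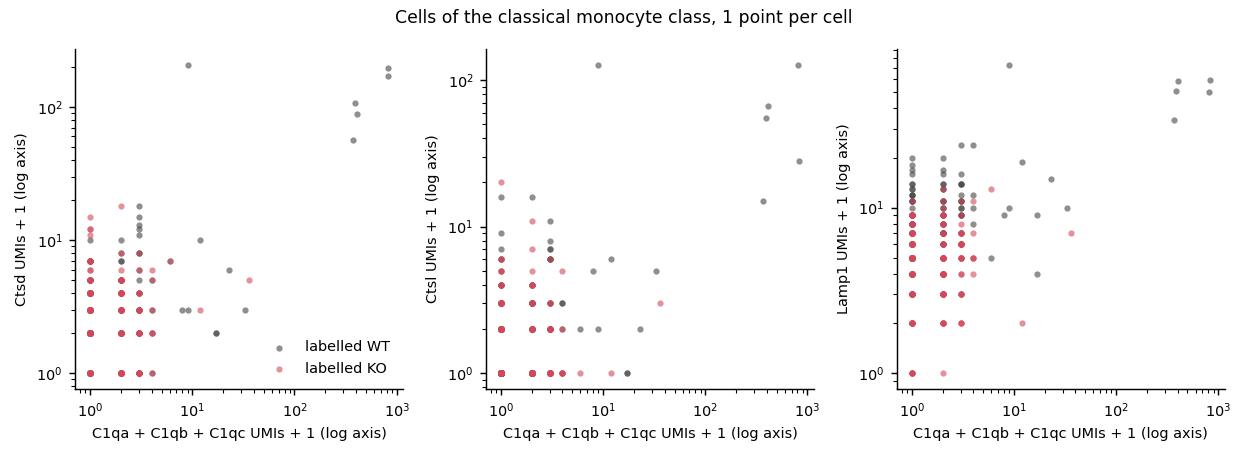
UMIs plus 1 of Ctsd, Ctsl and Lamp1 (log axes) against summed C1q UMIs plus 1 in each classical monocyte, with the labelled WT and labelled KO libraries in different colours. The 6 cells with more than 20 Ctsd UMIs are all of the labelled WT library and have 8 to 829 C1q UMIs, while the median cell has 8 Lamp1 UMIs in the labelled WT and 4 in the labelled KO library.

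Across 24 class and library groups, the levels of Ctss and Ctsz followed each other most closely (Pearson r of log2 levels 0.97), and Ctsd and Ctss least (0.17). The groups share libraries and depth, so these values are descriptions. Of 7030 genes, the one most like Ctsl was Nceh1, with a lipid ester hydrolase product (0.95), and Ctsb was among its nearest 3 (0.93). Lgmn was most like Ftl1 (0.97), the ferritin light chain, with Cd93 and Lipa, the lysosomal acid lipase, next. Lamp1 was most like Rnf149 (0.96), Ctsa like Sirpa (0.97), Ctsc like Rab5c (0.97), Ctsz like Cmtm3 (0.97) and Cd68 like Ywhag (0.98). Ctsd had no gene above 0.92, reached by Arhgap10. Between single cells thinned to 3700 UMIs, Ctsb and Ctsd were correlated in Cxcl3/Hspa1a macrophages (Spearman 0.50 and 0.59 in the labelled WT and KO libraries) and differently in C1q macrophages (0.27 and 0.68). In Cxcl3/Hspa1a macrophages Ctsb also gave 0.47 and 0.45 with Lgmn and 0.50 and 0.45 with Cd68, but −0.15 and −0.10 with Ctsc. Over all 45 gene pairs the median correlation was 0.15 and 0.23 in C1q macrophages and 0.06 and 0.05 in classical monocytes. Counts of few UMIs per cell pull such values towards 0, so these medians cannot show whether the genes vary together.

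Other lysosomal genes, listed by function, shared the macrophage bias in part. At least 2-fold higher in macrophages than in T cells in both libraries were 22 of 31 other hydrolases and activators with enough UMIs (2 lower), 12 of 15 proton pump subunits, 8 of 12 membrane proteins and 7 of 7 class II genes, beside 14.1% of all genes higher and 12.4% lower. Psap, the precursor of the saposins that activate lipid hydrolases, had 4977 and 3310.3 CPM in C1q macrophages. Of the 4 MiT/TFE factors, 2 had enough UMIs, and these 2 were higher. Lists of cathepsins and their inhibitors were mixed: 2 of 6 cathepsin inhibitors were higher and 3 lower, and 1 of 4 other cathepsins was higher and 1 lower. Ctsh, an aminopeptidase, had 606 and 504 CPM in macrophages and 20.5 and 22.1 CPM in T cells, whereas Ctsw, of cytotoxic lymphocytes, had 8.03 and 9.95 against 213 and 258 CPM. Cst7, encoding cystatin F, an inhibitor that acts on cathepsin C, was 18.6 and 8.34 CPM in macrophages and 315 and 243 CPM in T cells. None of 4 sorting genes with enough UMIs was higher, and 1 was lower.

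Few genes of most lists passed the limit between the libraries. In C1q macrophages, 0 of 11 other membrane proteins, 1 of 15 proton pump subunits and 3 of 28 hydrolases and activators were at least 1.5-fold lower in the labelled KO library, with median log2 ratios of −0.08, −0.13 and −0.10. The 10 genes of the set had 2 lower and a median of −0.20, and 4.76% of all genes were lower, with a median of 0.07. Cathepsin inhibitors had 1 of 3 lower (median 0.02) and other cathepsins 0 of 1. Of the class II genes 4 of 7 were lower, with a median of −0.82: Cd74, the invariant chain that Ctss and Ctsl cut, was 5862 and 3299 CPM, and H2-Aa, a class II alpha chain, 2051 and 1017 CPM. In classical monocytes 0 of 7 class II genes were lower (all genes 9.83%) and 1 was higher (7.58%), with a median of 0.44. Cstb, encoding cystatin B, an inhibitor of cysteine cathepsins, was 1852 and 1178 CPM in C1q macrophages (−0.65). Of the MiT/TFE factors, Tfeb (25 and 22.4 CPM) and Tfe3 (26.8 and 25.7 CPM) were close to level there, with 42 to 55 UMIs each, and Mitf was 24.4 and 11.2 CPM (41 and 24 UMIs). Ctse, the aspartic protease cathepsin E, had a larger ratio than any member of the set in T cells, from 61.7 to 2.84 CPM in T cells (−4.41, −5.09 to −3.86) and from 191 to 9.91 CPM in pDC. In all macrophages it gave 85 and 1 UMIs.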

How the data were processed

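The authors aligned reads to mm10 with Cell Ranger (per the submitters' processing notes), joined the libraries and normalised with Seurat. The deposited table, described as raw counts, holds natural log values, log(1 + UMIs × 10000 / total), per cell. Whole UMIs were recovered by dividing each cell by its smallest step, and 100% of values were whole within 0.01. The study's filter (at least 300 UMIs and 100 genes, and no more than 5% mitochondrial) left out 0 cells. Cells were clustered with Seurat 5.3.0 (R 4.3.3; 13 principal components, resolution 0.8) without the 10 genes, and myeloid clusters were clustered again. A cluster took the class with most of its markers among its 10 leading genes, among classes within 0.15 of the largest share of markers detected, with at least 3 detected, a rule set after the data were seen. No doublets were removed. UMIs were summed per class and library with Python 3.11.15, numpy 2.4.6, scipy 1.17.1 and pandas 2.3.3. Ratios had 0.5 UMIs added and exact conditional binomial intervals. Share limits were Clopper-Pearson. Genes entered a comparison with at least 100 UMIs over the groups compared. Likeness used log2(CPM + 10) of genes with at least 500 UMIs. The scripts were tested on simulated data. The Wilcoxon test over cells was not used, since cells are not replicates. The members, gene lists and markers were chosen with earlier results of these data known. Named outside the 10 members were the 3 most like genes of each, and the 3 highest genes of each lysosomal list, with the 7 genes lower in every class named after their values were seen. Motifs came from RefSeq windows and gene positions were checked in GENCODE (GRCm38).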

Additional observations from a re-analysis of the deposited data

Results flagged for a closer look

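In 3 cases a gene was lower in the labelled KO library in one cell class and higher in another, beyond the counting intervals of both. These differences between classes were not tested, since each class had 1 library per genotype. Ctsb had a log2 ratio of −1.0035 in classical monocytes and 0.44 (0.12 to 0.78) in naive-like T cells. Ctsd had −1.82 in classical monocytes and 0.26 (0.03 to 0.49) in naive-like T cells. In the labelled WT monocytes, 11 of 112 cells held 77.5% of Ctsd and 64.6% of Ctsb UMIs, and 1 naive-like T cell of the labelled KO library, with 169 C1q UMIs, held 8.52% of the UMIs of the set in its class. Ctsc had −0.75 in CD8 T cells and 0.10 (0.01 to 0.18) in C1q macrophages. The CD8 T cell class pooled clusters of 350 and 176 and of 115 and 245 cells, within which Ctsc was −0.59 and −0.79. The median of all genes was 0.11 in naive-like T cells and 0.07 in C1q macrophages, which lies within the intervals of Ctsd and Ctsc there, so relative to the median gene only Ctsb stood above it.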

How the results depend on the processing

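The count of members at least 2-fold higher in macrophages than in T cells was 10 under every alternative that gave a value. No paired analysis was possible because each genotype had 1 library, so leaving out a library was not possible either. Of 1390 member values under alternatives, 1143 moved by less than their counting interval, 246 moved further and 1 that had been past 1.5-fold reversed. This was Ctsl in regulatory T cells, from −0.93 to 0.0052 after thinning cells to 1 depth per class. All 121 Lamp1 values were negative (−1.81 to −0.58), and 120 were past 1.5-fold. Of member and class pairs with at least 100 UMIs, 18 were lower by 1.5-fold, and 11 of these were Lamp1. The total was 34 with 20 principal components and 17 to 27 otherwise, with the limit set at 30 UMIs in 1 setting. No share over all gene and class pairs was taken, so these totals carry no reading of their own. Counts of members per class changed as follows, all lower in the labelled KO library, with the share of all genes lower in brackets. With resolution 1.2 they were 2 in Cxcl3/Hspa1a macrophages (11.4%) and 3 in MHC II-high monocyte-derived cells (6.09%). With 20 principal components they were 2 (10.2%) and 2 (4.51%) in those classes, 5 in nonclassical monocytes (8.25%), 7 in naive-like (4.68%), 3 in cycling CD8 (3.78%) and 3 in regulatory T cells (4.06%). With members allowed among the variable genes they were 2 in MHC II-high monocyte-derived cells (4.66%), 8 in naive-like (5.12%) and 2 in regulatory T cells (3.96%). There 1 labelled WT cell of 77632 UMIs with 1381 member UMIs joined the naive-like T cells, and Ctsb went from 0.44 to −1.64. With each cell weighted alike they were 3 in nonclassical monocytes (6.36%), 2 in naive-like (2.99%) and 2 in cycling CD8 T cells (4.34%). Naive-like T cells had 2 without mitochondrial and ribosomal genes (3.49%), 2 relative to the median gene (4.14%) and 0 without shared barcodes (2.27%). Thinned, the counts were 2 in MHC II-high monocyte-derived cells (6.22%), 4 in nonclassical monocytes (8.07%), 2 in naive-like T cells (4.37%), 3 in cycling CD8 T cells (6.73%) and 2 in NK cells (4.86%). With at least 30 UMIs they were 3 in regulatory T cells (7.49%) and 3 in NK cells (7.53%). Classical monocytes had 3 after the planned (5.40%) and the added (5.49%) filter on doublets and 2 without cells with C1q UMIs (5.68%), a step which left 3 in nonclassical monocytes (5.65%). The planned filter on cells with T cell and myeloid UMIs kept 26 and 37 T cells, too few for values, since those marker lists held genes T cells express. The filter on C1q markers, the step on C1q UMIs and the median gene were added after the data were seen. The causes were not tested. Several members had under 100 UMIs in cDC1, mature DC, naive-like T, NK and regulatory T cells, which limits the values there.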
